A study of Homo sapiens with 11 samples.

Results

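Melanosome biogenesis and transport genes were examined for peaks of 5 ChIP-seq antibodies in 92-1 cells, an established line from a uveal melanoma, a tumour of melanocytes in the eye. The 36 genes, of 20052 protein-coding genes in all, were taken from a list of melanosome components and carriers, and each was given a window of its RefSeq extent on GRCh38 with 5 kb either side. The cells had been treated for 4 h with the solvent DMSO or with FHT-1015, an inhibitor of SMARCA4 and SMARCA2, the ATPases that drive the BAF nucleosome remodelling complexes; no dose is named in the labels used here, and all libraries came from this 1 line. Antibodies were against H3K27ac, the acetylated histone of active promoters and enhancers, against SMARCA4, and against the transcription factors SOX10, MITF and TFAP2A, each with a single library in either condition. Without replicates no test was made, and every difference below is between 2 libraries.

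Melanosomes are organelles related to lysosomes in which pigment cells make and store melanin. Cargo reaches them from endosomes through the BLOC complexes and the adaptor complexes AP-1 and AP-3, Rab GTPases and their effectors then carry mature melanosomes along actin, and pumps, channels and exchangers in the membrane set the conditions inside. Inherited loss of such genes causes albinism, Hermansky-Pudlak, Griscelli or Chediak-Higashi syndrome. MITF, a basic helix-loop-helix factor, binds E-boxes of the form CACGTG or CATGTG and is known as the lineage's regulator of pigment genes; SOX10 is a neural crest factor that acts with it, and TFAP2A is a further factor of the same lineage. The genes were put in 3 classes from general knowledge of where they are expressed. The class names are working labels, since no expression was measured here. Genes of the lineage-restricted class can also be expressed in other cells, and how restricted each one is was not checked. Lineage-restricted genes were GPR143, OCA2, SLC45A2, SLC24A5, RAB38, MLPH, GPNMB, TSPAN10 and TRPM1. Selective genes, used in pigment cells and some other tissues, were RAB27A, RAB32, MYO5A, MREG, TPCN2, BACE2, SLC7A11, CD63 and ATP7A. The other 18 are trafficking machinery of most cells: the BLOC-1 subunits BLOC1S1 to BLOC1S6, SNAPIN and DTNBP1, the BLOC-2 subunits HPS3, HPS5 and HPS6, the BLOC-3 subunits HPS1 and HPS4, the adaptor subunits AP3B1, AP3D1 and AP1G1, and LYST and VPS33A.

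The start regions of 6 genes are shown because the strongest MITF or SOX10 peaks over a promoter window of their class lay on them. They are RefSeq sequences on GRCh38.p14, 5′ to 3′ on the gene's strand, from 250 bases before the start to 50 after it. Capitals mark matches, on either strand, to 5 words searched for: CACGTG and CATGTG (read CACATG on the other strand), ACAAAG and AACAAT, which are SOX cores, and GCCNNNGGC, an AP-2 palindrome. CACGTG and GCCNNNGGC read the same on both strands, and in GPR143 a CATGTG match shares bases with a GCCNNNGGC match.
GPNMB: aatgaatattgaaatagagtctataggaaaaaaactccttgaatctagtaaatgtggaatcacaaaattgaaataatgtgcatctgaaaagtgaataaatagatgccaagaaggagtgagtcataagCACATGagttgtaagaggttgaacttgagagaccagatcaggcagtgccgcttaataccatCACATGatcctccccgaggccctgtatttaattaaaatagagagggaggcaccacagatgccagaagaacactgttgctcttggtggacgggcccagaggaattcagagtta
TSPAN10: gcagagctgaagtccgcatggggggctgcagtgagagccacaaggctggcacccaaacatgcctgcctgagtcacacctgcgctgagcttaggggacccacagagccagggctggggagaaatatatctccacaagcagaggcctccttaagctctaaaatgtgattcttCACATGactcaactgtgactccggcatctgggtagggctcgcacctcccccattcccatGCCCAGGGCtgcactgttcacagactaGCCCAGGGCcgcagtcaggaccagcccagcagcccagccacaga
GPR143: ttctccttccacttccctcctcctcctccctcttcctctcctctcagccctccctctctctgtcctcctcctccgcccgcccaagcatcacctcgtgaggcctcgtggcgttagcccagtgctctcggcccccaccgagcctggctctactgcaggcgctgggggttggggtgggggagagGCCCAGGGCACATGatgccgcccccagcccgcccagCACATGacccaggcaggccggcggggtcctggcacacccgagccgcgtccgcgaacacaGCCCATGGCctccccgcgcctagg
TRPM1: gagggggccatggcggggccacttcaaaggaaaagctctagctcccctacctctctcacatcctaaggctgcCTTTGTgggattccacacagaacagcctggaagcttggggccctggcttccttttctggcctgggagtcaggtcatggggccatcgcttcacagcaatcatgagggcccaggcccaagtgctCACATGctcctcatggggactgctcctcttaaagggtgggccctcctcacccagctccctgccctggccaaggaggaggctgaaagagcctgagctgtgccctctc
HPS5: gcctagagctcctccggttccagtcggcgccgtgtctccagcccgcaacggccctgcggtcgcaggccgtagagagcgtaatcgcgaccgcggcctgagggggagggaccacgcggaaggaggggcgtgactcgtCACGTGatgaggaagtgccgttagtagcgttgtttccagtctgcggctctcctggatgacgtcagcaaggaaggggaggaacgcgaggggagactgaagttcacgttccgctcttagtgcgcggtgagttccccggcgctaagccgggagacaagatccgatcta
HPS4: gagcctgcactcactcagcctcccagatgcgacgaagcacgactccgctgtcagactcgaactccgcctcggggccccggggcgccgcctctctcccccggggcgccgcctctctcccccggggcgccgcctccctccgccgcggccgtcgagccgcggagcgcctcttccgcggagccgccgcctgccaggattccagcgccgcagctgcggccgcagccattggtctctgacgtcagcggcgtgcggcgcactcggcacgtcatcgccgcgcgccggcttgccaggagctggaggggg
The windows are chr7:23246525-23246824 for GPNMB and chr17:81642055-81642354 for TSPAN10, both on the plus strand, and, on the minus strand, chrX:9765798-9766097 for GPR143, chr15:31101676-31101975 for TRPM1, chr11:18322091-18322390 for HPS5 and chr22:26483814-26484113 for HPS4. Counted from the start, CATGTG began at -123 and -62 in GPNMB, -80 in TSPAN10, -61 and -33 in GPR143 and -56 in TRPM1. CACGTG began at -115 in HPS5, and the window printed for HPS4 held none of the 5 words. HPS4 has 4 RefSeq starts; the 2 whose windows lay under the MITF peak held none of the words, and the other 2, with no MITF peak in DMSO, held its CATGTG and ACAAAG matches.

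The strength of a peak is given as the −log10 p that the authors' peak caller assigned, which orders peaks within a list. Values of the DMSO and FHT-1015 lists are set side by side as a description; the lists differ in depth, and no change in strength was tested. The MITF peak over the GPNMB start had −log10 p 301 in DMSO against 304 in FHT-1015, and its summit lay at -72. Over TSPAN10 it was 295 and 27.8, with the summit at -88. GPR143 had 261 and 205, with the summit at -106. These 3 summits lay inside the printed windows, and the TSPAN10 peak was much the weaker of the 3 in FHT-1015. The MITF peaks over TRPM1 (255 and 149), HPS5 (231 and 169) and HPS4 (181 and 184) had summits outside the printed windows, at -424, -335 and 111. The 6 starts were ranked by their DMSO peaks, so that each carried an MITF peak in DMSO was set by the choice; each also had one in FHT-1015. The SOX10 peak over TSPAN10, at 31.5 in DMSO, had no counterpart in FHT-1015. The other 5 starts had a SOX10 peak in both lists, with 135 in DMSO against 24.5 in FHT-1015 for TRPM1, 107 and 60.6 for GPNMB, 49.9 and 15.8 for GPR143, 38.3 and 12.6 for HPS4, and 23.5 and 7.76 for HPS5.

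Promoter sequences were matched for 27 of the 36 genes; AP3B1, AP3D1, BACE2, BLOC1S4, HPS1, RAB38, SLC45A2, SLC7A11 and VPS33A had none matched. CATGTG was found in 6 of 7 lineage-restricted genes (85.7%: GPNMB, GPR143, OCA2, SLC24A5, TRPM1 and TSPAN10), in 1 of 7 selective genes (CD63) and in 3 of 13 ubiquitous genes (BLOC1S3, HPS4 and LYST). Of 15842 protein-coding genes with a promoter sequence, 11.5% had it, and of 22198 single promoters 8.93%. CACGTG was in 1 lineage-restricted gene (MLPH), in 2 selective genes (ATP7A and CD63) and in 4 ubiquitous genes (BLOC1S1, BLOC1S3, HPS3 and HPS5), against 10.9% of all genes and 8.34% of all promoters. CATGTG was thus the more frequent of the E-boxes in the lineage-restricted class, where MLPH had CACGTG only, and neither prevailed in the ubiquitous class, where BLOC1S3 had both. With a preceding T, a form chosen after the sequences were seen, TCATGTG was in 4 of the 7 lineage-restricted genes (GPNMB, GPR143, SLC24A5 and TSPAN10), in CD63 and in BLOC1S3, against 3.10% of all genes and 2.32% of all promoters. TCACGTG was in the same 4 ubiquitous genes as CACGTG, in ATP7A and in no lineage-restricted gene, against 5.83% of all genes and 4.44% of all promoters. GCCNNNGGC was in 5 of 7 lineage-restricted, 3 of 7 selective and 3 of 13 ubiquitous genes (all genes 33.6%, all promoters 27.3%). ACAAAG was in 2, 2 and 2 genes of the 3 classes (all genes 17%, all promoters 13.6%) and AACAAT in 1, 1 and 0 (9.59% and 7.43%). A match is a description of the letters, not of a bound site.

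At these 27 starts, all 27 genes had an H3K27ac peak in both conditions; among all genes the share with one was 56.6% in DMSO and 58.1% in FHT-1015. SOX10 peaks lay over all 27 in DMSO (60.04% of all genes) and over 15 in FHT-1015, so that 55.6% of them kept the peak, close to the 54.9% of all genes with one. The 12 genes without it in FHT-1015 were MLPH, OCA2 and TSPAN10 of the lineage-restricted class, MYO5A, RAB32 and TPCN2 of the selective class, and BLOC1S1, BLOC1S3, DTNBP1, HPS3, LYST and SNAPIN of the ubiquitous class. MITF covered 23 starts in DMSO (36.9% of all genes) against 24 in FHT-1015 (35.5%), 22 of them in both (95.7% kept, all genes 78.8%). MYO5A alone had lost it, and BLOC1S5 and DTNBP1 had an MITF peak in FHT-1015 only. TFAP2A covered 26 and then 27 starts, against 62.2% of all genes in each condition, and all 26 were kept (all genes 93.8%). SMARCA4 covered 22 starts in each condition, against 37.5% of all genes in DMSO and 49.2% in FHT-1015. Of these, 21 were shared (95.5% kept, all genes 90.3%).

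Over the whole windows, each of the 36 genes had an H3K27ac, a SOX10 and a TFAP2A peak in DMSO, 35 had a SMARCA4 peak and 34 an MITF peak; over all protein-coding genes the shares with a peak were 71.2% for H3K27ac, 81.5% for SOX10, 86.4% for TFAP2A, 75.7% for SMARCA4 and 75.1% for MITF. In FHT-1015 all 36 genes had an H3K27ac peak (69.1% of all genes) and a TFAP2A peak (85.8%), 34 a SMARCA4 peak (78.5%), 34 an MITF peak (76.2%) and 30 a SOX10 peak (59.8%). The exceptions were SNAPIN without SMARCA4, and BLOC1S2 and BLOC1S4 without MITF, in both conditions. In FHT-1015 the number of SOX10 peaks was lower at 32 genes, equal at 3 and higher at 1, BLOC1S2, which had 1 and then 2. H3K27ac peaks were fewer at 21 genes, equal at 10 and more at 5. For MITF the counts were 15 fewer, 8 equal and 13 more, for TFAP2A 18, 9 and 9, and for SMARCA4 11, 12 and 13. SOX10 was thus the antibody whose counts moved 1 way at nearly all of these genes. The same gene counts were not made over all protein-coding genes. Their windows held 65969 SOX10 peaks in DMSO against 22508 in FHT-1015, so the fall is not particular to the melanosome genes.

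**Figure D1:**
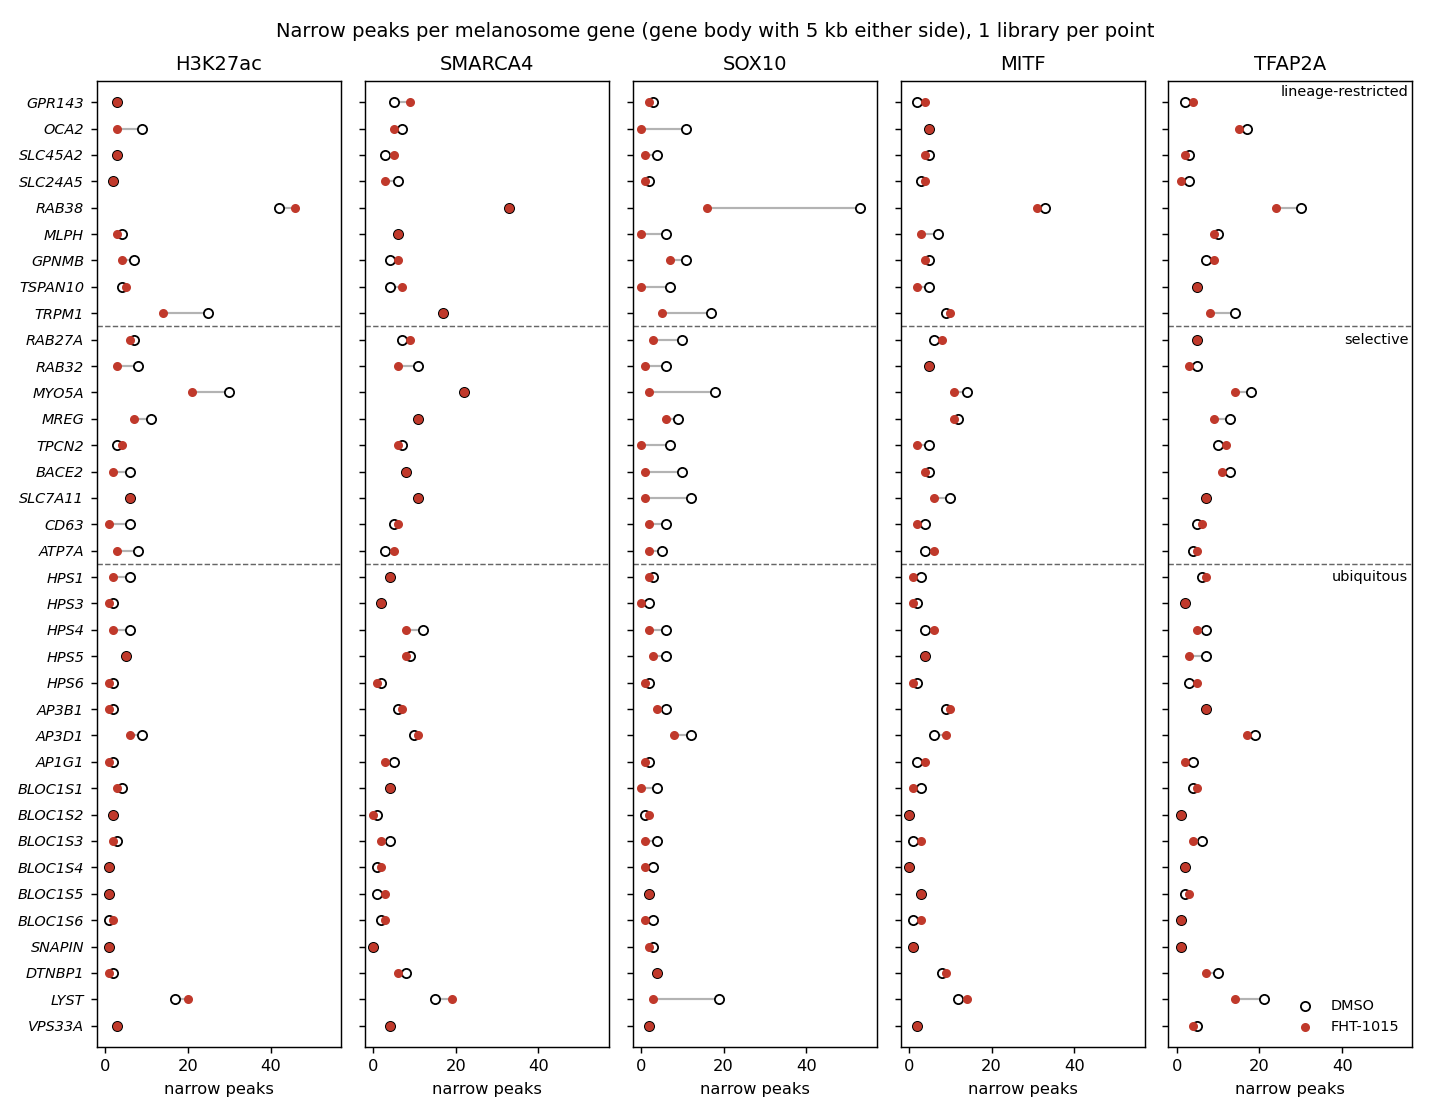
Narrow peaks in the window of each of the 36 genes (rows, in 3 classes divided by dashed lines) for the 5 antibodies, with DMSO as open circles and FHT-1015 as red points, each from 1 library; where both counts are equal the red point lies in the circle. SOX10 counts are lower in FHT-1015 at 32 genes, from 53 to 16 at RAB38, while the counts of the other 4 antibodies lie on both sides.

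Counting each peak once over the union of the windows, the genes held 279 SOX10 peaks in DMSO against 89 in FHT-1015, and 65 of the 279 (23.3%, 95% Wilson interval 18.7 to 28.6) were retained, meaning that a SOX10 peak of the FHT-1015 list shared at least 1 bp. MITF peaks numbered 201 and 194, with 55.2% (48.3 to 61.9) retained, and TFAP2A peaks 276 and 235, with 60.5% (54.6 to 66.1). H3K27ac peaks numbered 249 and 191, with 65.1% (59.0 to 70.7) retained, and SMARCA4 peaks 259 and 260, with 70.3% (64.4 to 75.5). Over all protein-coding windows the retained shares were 21.3% for SOX10, 41.0% for MITF, 60.7% for TFAP2A, 62.5% for H3K27ac and 57.8% for SMARCA4. The SOX10, TFAP2A and H3K27ac intervals of the melanosome genes hold the value of all genes, and the MITF and SMARCA4 intervals lie above it. The MITF peaks of the melanosome genes were also stronger at the median (−log10 p 8.57 against 7.14), and those of −log10 p 10 or more were retained at 84.4%, against 67.0% over all genes. The intervals cover counting in these lists only.

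Covered length in FHT-1015 was 0.269 times that in DMSO for SOX10 (123850 and 33302 bp), 0.863 for MITF (91368 and 78828 bp), 0.861 for TFAP2A (128927 and 110969 bp), 0.815 for H3K27ac (317086 and 258581 bp) and 1.12 for SMARCA4 (130286 and 146538 bp). The ratios over all protein-coding windows were 0.268, 0.826, 0.915, 0.801 and 1.09 in the same order. The mean fold enrichment per peak, also the authors' value, was 4.69 in DMSO against 3.43 in FHT-1015 for SOX10, 9.04 against 6.18 for MITF, 8.22 against 5.998 for TFAP2A, 6.9995 against 8.15 for H3K27ac, and 3.66 against 3.79 for SMARCA4. Read depth recovered from the background of the lists, as FHT-1015 over DMSO, was 1.14 for SOX10, 1.05 for H3K27ac, 0.918 for SMARCA4, 0.854 for MITF and 0.960 for TFAP2A. The part of depth and of the lists' thresholds in the differences was not tested.

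Genes were called lower where the covered length in FHT-1015 was at most 0.5 times that in DMSO and higher where it was 2 times or more, with at least 500 bp covered in 1 condition. For SOX10, 31 of the 36 genes were lower (79.7% of all genes tested), and 6 had every DMSO peak missing in FHT-1015 (28.5% of all genes with a SOX10 peak): MLPH, OCA2 and TSPAN10, the channel gene TPCN2, and BLOC1S1 and HPS3. None was higher (0.53%). Complete loss was seen at no gene for H3K27ac (5.03% of all genes with a peak), MITF (10.2%) or TFAP2A (3.71%), and at 1 of 35 for SMARCA4 (4.99%), BLOC1S2, whose single peak had −log10 p 3.14. The 5 genes not called lower were GPR143 (0.942), BLOC1S2 (0.898), GPNMB (0.698), AP3B1 (0.580) and AP1G1 (0.547). For MITF 5 of 33 were lower (20.5%), namely MLPH, TSPAN10, SLC45A2, CD63 and BLOC1S1, and AP1G1 was higher (11.4% of all genes). For TFAP2A 3 of 35 were lower (9.90%), all of them lineage-restricted: SLC24A5 (0.325), SLC45A2 (0.407) and TSPAN10 (0.455); none was higher, against 5.92% of all genes. For H3K27ac 4 of 36 were lower (12.4%), MLPH (0.333), OCA2 (0.401), TPCN2 (0.402) and BLOC1S1 (0.445), and none was higher (2.18%). For SMARCA4 none of 34 was lower (5.81%) and 4 were higher (18.8%): GPR143, HPS3, BLOC1S5 and BLOC1S6. The share called lower for SOX10 was thus somewhat above that of all genes, and the other shares were close to or under theirs. Below a ratio of 1 were 25 of 36 genes for H3K27ac and all 36 for SOX10. Of the 9 lineage-restricted genes, 3 were lower for TFAP2A and 3 for MITF, against 9.90% and 20.5% of all genes.

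**Figure D2:**
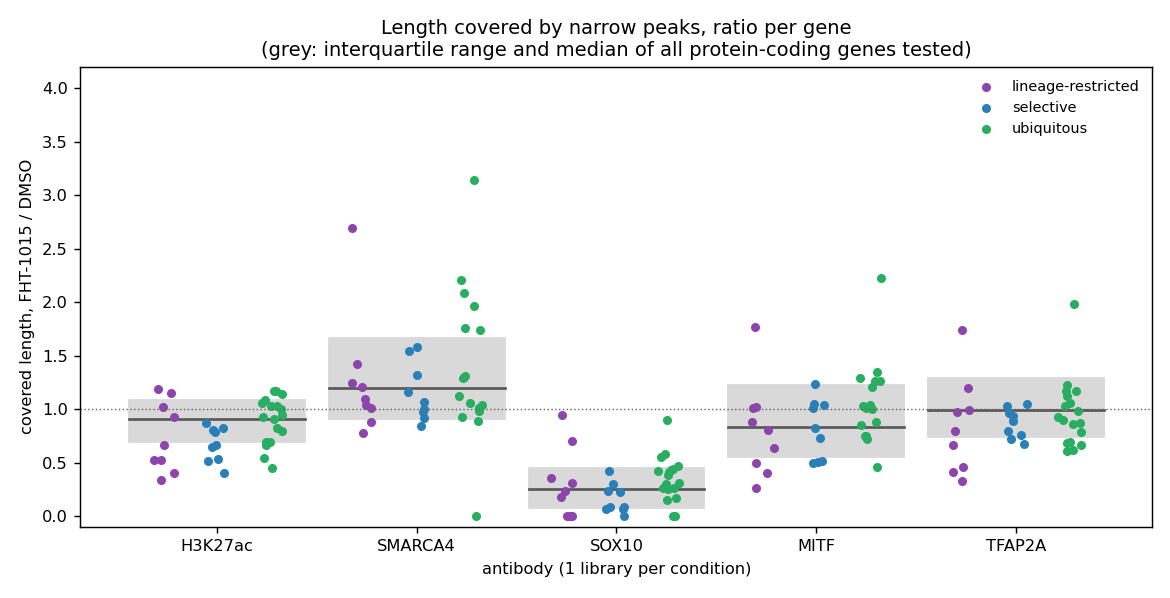
Length covered by narrow peaks in FHT-1015 over that in DMSO (linear axis, dotted line at 1) for each gene with a DMSO peak, coloured by class, over the interquartile range (grey box) and median (line) of all protein-coding genes tested. All 36 SOX10 points lie below 1, with 6 at 0. For H3K27ac the grey box runs from 0.690 to 1.08. The medians of the lineage-restricted (0.661) and selective (0.668) genes lie below it, and that of the ubiquitous genes (0.937) lies in it.

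The contrast of lineage-restricted genes with the ubiquitous machinery showed no difference in retained share larger than its counting interval. For SOX10, 25 of 114 peaks were retained at lineage-restricted genes (21.9%) and 24 of 84 at ubiquitous genes (28.6%), a difference of -6.64 percentage points (95% interval -19.0 to 5.38). The difference was -7.38 points (-23.3 to 9.16) for MITF, with shares of 51.4% and 58.7%. It was -2.70 points (-16.1 to 10.7) for TFAP2A, with 59.3% and 62.0%. For SMARCA4 it was -6.21 points (-19.3 to 7.11), from 68.2% and 74.4%, and for H3K27ac 3.03 points (-10.9 to 17.3), from 69.7% and 66.7%. The selective genes had 19.3% for SOX10, 55.4% for MITF, 60% for TFAP2A, 68.2% for SMARCA4 and 56.5% for H3K27ac. The 5 intervals run from -23.3 to 17.3 points between them, so the shares are not shown to be alike. Per gene, the median covered-length ratio was lower in the lineage-restricted than in the ubiquitous class for each antibody. It was 0.661 against 0.937 for H3K27ac, 0.804 against 1.02 for MITF and 0.798 against 0.910 for TFAP2A. For SMARCA4 it was 1.09 against 1.12, and for SOX10 0.234 against 0.348. Summed over each class, the ratio was instead higher in the lineage-restricted class for H3K27ac (0.929 against 0.833) and SOX10 (0.318 against 0.312). RAB38 alone held 53 of the 114 lineage-restricted SOX10 peaks and 42 of the 99 H3K27ac peaks. Leaving it out turned the H3K27ac difference to -12.3 points (-28.5 to 4.68), and leaving out TRPM1 made it 14.4 (0.022 to 28.2). The sign also turned with every gene kept. The difference was -9.44 points for summits within 200 bp and -6.67 when each list was cut at −log10 p 10. Broad lists gave -1.94, and moving the selective genes to the lineage-restricted class gave -3.08. It stayed positive for gene bodies (5.07), 20 kb windows (3.23), distal peaks (17.4), a cut of the DMSO list only (1.67) and selective genes moved to the ubiquitous class (7.70). The sign for H3K27ac thus depends on RAB38 and on the settings.

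Position differed between the classes. Of SOX10 peaks, 12.3% at lineage-restricted genes and 42.9% at ubiquitous genes lay within 1 kb of either end of a protein-coding gene, here called the boundary; for H3K27ac the shares were 10.1% and 50.7%. Lineage-restricted windows covered 1225 kb and ubiquitous ones 1315 kb, with 9 and 18 genes. Boundary peaks were retained more than distal ones for all 5 antibodies over the 36 genes, with SOX10 at 47.7% and 15.9%, MITF at 73.3% and 50%, TFAP2A at 83.6% and 53.1%, H3K27ac at 85.2% and 58.5%, and SMARCA4 at 91.2% and 62.8%. The same held over all protein-coding windows. There SOX10 had 42.4% and 13.2%, MITF 66.1% and 34.5%, and TFAP2A 85.8% and 53.4%. H3K27ac had 89.5% and 50.1%, and SMARCA4 85.0% and 48.0%. Among distal peaks alone, SOX10 was retained at 20.0% of 100 in lineage-restricted genes and 10.4% of 48 in ubiquitous genes, a difference of 9.58 points (-3.93 to 20.2), and H3K27ac at 67.4% of 89 and 50% of 34 (17.4 points, -1.54 to 35.6). Both differences thus differed in size or sign from those over all peaks, and both intervals include 0. Some RefSeq starts lie inside the gene extent used here, so peaks over them count as distal, among them those over the printed starts of GPR143, TRPM1 and TSPAN10. Of the distal SOX10 peaks, 3 of 100 at lineage-restricted genes and 2 of 48 at ubiquitous genes lay over a matched RefSeq start window. Without such peaks, a choice made after seeing the data, SOX10 was retained at 18.6% of 97 and 8.70% of 46 (9.86 points, -3.45 to 20.2), and H3K27ac at 66.3% of 86 and 48.5% of 33 (17.8 points, -1.59 to 36.2). Windows also reached into other genes: 12 of 18 ubiquitous windows, 3 of 9 lineage-restricted ones and 4 of 9 selective ones overlapped another protein-coding gene, and those of BLOC1S1 and CD63 overlapped each other.

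**Figure D3:**
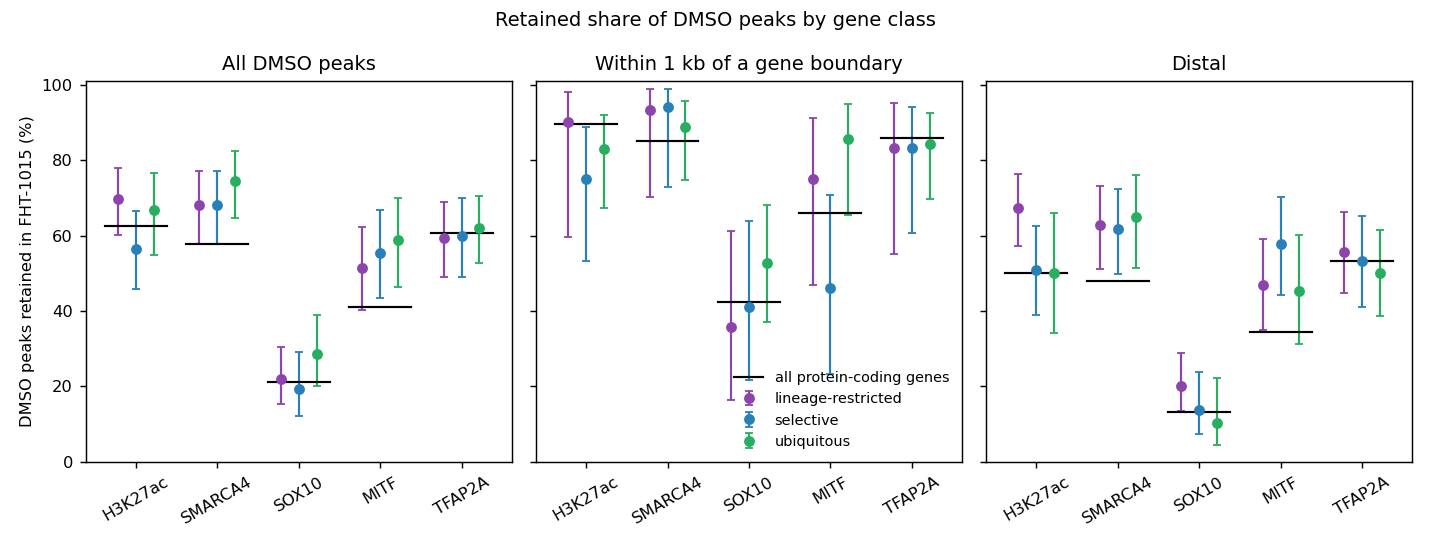
Share of DMSO peaks with an overlapping FHT-1015 peak (percent) for the 3 gene classes and 5 antibodies, over all peaks, peaks within 1 kb of a gene boundary and distal peaks; bars are 95% Wilson intervals over peaks, and black lines are all protein-coding genes. Within each class SOX10 is the lowest of the 5 antibodies in each panel, and for each antibody the class intervals overlap.

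Among the lineage-restricted genes of the melanosome membrane, OCA2, which encodes an anion transporter of the melanosome, spans chr15:27719008-28099315. It had 11 SOX10 peaks in DMSO against none in FHT-1015, 9 and 3 H3K27ac peaks, 7 and 5 SMARCA4 peaks, 5 and 5 MITF peaks, and 17 and 15 TFAP2A peaks. The strongest lost SOX10 peak of the class lay inside OCA2 at chr15:27933483-27934026, with −log10 p 69.1 and 76 reads at the summit. A SMARCA4 peak of −log10 p 30.8 at chr15:27933404-27934072, the strongest lost one of the class, overlapped it, and an H3K27ac peak there was also absent in FHT-1015, while MITF and TFAP2A peaks overlapped it in both conditions. The strongest MITF peak at OCA2 in DMSO had −log10 p 112 and 103 reads at the summit, and its FHT-1015 counterpart 3.50 and 11 reads.

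SLC45A2, a transporter whose loss causes albinism, had 4 SOX10 peaks in DMSO against 1 in FHT-1015, 5 and 4 MITF peaks, 3 and 2 TFAP2A peaks, 3 and 3 H3K27ac peaks, and 3 and 5 SMARCA4 peaks. SLC24A5, a cation exchanger of the melanosome, had 2 and 1 SOX10 peaks, 3 and 4 MITF peaks, 3 and 1 TFAP2A peaks, 2 and 2 H3K27ac peaks, and 6 and 3 SMARCA4 peaks. Both kept their H3K27ac peaks, covering 4845 and 2548 bp at SLC45A2 and 2979 and 2764 bp at SLC24A5. The strongest MITF peak in DMSO had −log10 p 114 against 29.8 for its FHT-1015 counterpart at SLC45A2, and 56.04 against 10.0 at SLC24A5. For TFAP2A the values were 42.1 against 2.95 and 27.45 against 5.04. The 1 SOX10 peak left at SLC24A5, at 2.03, stood just above the lowest value of its list.

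TRPM1, a cation channel gene of melanocytes and retinal bipolar cells that hosts the microRNA miR-211, had 17 SOX10 peaks in DMSO against 5 in FHT-1015, 9 and 10 MITF peaks, 14 and 8 TFAP2A peaks, 25 and 14 H3K27ac peaks, and 17 and 17 SMARCA4 peaks. Its H3K27ac retained share of 36% was the second lowest of the class, after OCA2 at 33.3%. The strongest retained TFAP2A peak of the class lay at chr15:31101649-31103438, over the start shown above, with −log10 p 245 in DMSO against 114 in FHT-1015. GPR143, the receptor of the melanosome membrane that is mutated in ocular albinism, had 3 and 2 SOX10 peaks, 2 and 4 MITF peaks, 2 and 4 TFAP2A peaks, 3 and 3 H3K27ac peaks, and 5 and 9 SMARCA4 peaks. Its SMARCA4 peaks covered 1505 and 4045 bp, and it was the gene of the class with the largest covered-length ratio for all 3 factors and SMARCA4: 0.942 for SOX10, 1.76 for MITF, 1.74 for TFAP2A and 2.69 for SMARCA4. The MITF and TFAP2A ratios rest on 2 peaks in DMSO.

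GPNMB, a transmembrane glycoprotein of melanosomes, spans chr7:23246775-23275108. It had 11 SOX10 peaks in DMSO against 7 in FHT-1015, 5 and 4 MITF peaks, 7 and 9 TFAP2A peaks, 7 and 4 H3K27ac peaks, and 4 and 6 SMARCA4 peaks. The H3K27ac peak over its start, at chr7:23244297-23250092, had −log10 p 393, the second strongest of the 68093 peaks of the DMSO list, and 415 in FHT-1015. The strongest retained MITF and SMARCA4 peaks of the class lay there too, SMARCA4 with 93 reads at the summit in DMSO against 116 in FHT-1015. GPNMB kept 45.5% of its SOX10 peaks, the share at SLC24A5 being 1 of 2 peaks and at the other 7 genes of the class 33.3% or less. TSPAN10, a tetraspanin gene, contrasts with it: 7 SOX10 peaks in DMSO against none in FHT-1015, 5 and 2 MITF peaks, 5 and 5 TFAP2A peaks, 4 and 5 H3K27ac peaks, and 4 and 7 SMARCA4 peaks. Its H3K27ac peaks covered 8234 and 4285 bp and its TFAP2A peaks 4479 and 2039 bp.

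MLPH, melanophilin, which links RAB27A on the melanosome to the motor myosin Va, had 6 SOX10 peaks in DMSO against none in FHT-1015, 7 and 3 MITF peaks, 10 and 9 TFAP2A peaks, 4 and 3 H3K27ac peaks, and 6 and 6 SMARCA4 peaks. It had the lowest covered-length ratio of the 36 genes for H3K27ac (8892 and 2959 bp, 0.333) and for MITF (3556 and 943 bp, 0.265). The strongest lost MITF peak of the class lay in MLPH at chr2:237490000-237490920, with −log10 p 34.9 and 38 reads; a SOX10 peak and a SMARCA4 peak overlapped it in DMSO only, and H3K27ac in both conditions. The strongest SMARCA4 peak at MLPH in DMSO, chr2:237482040-237483663, had −log10 p 18.53 and its FHT-1015 counterpart 9.63, while the strongest in FHT-1015 was another peak, at 40.3.

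**Figure D4:**
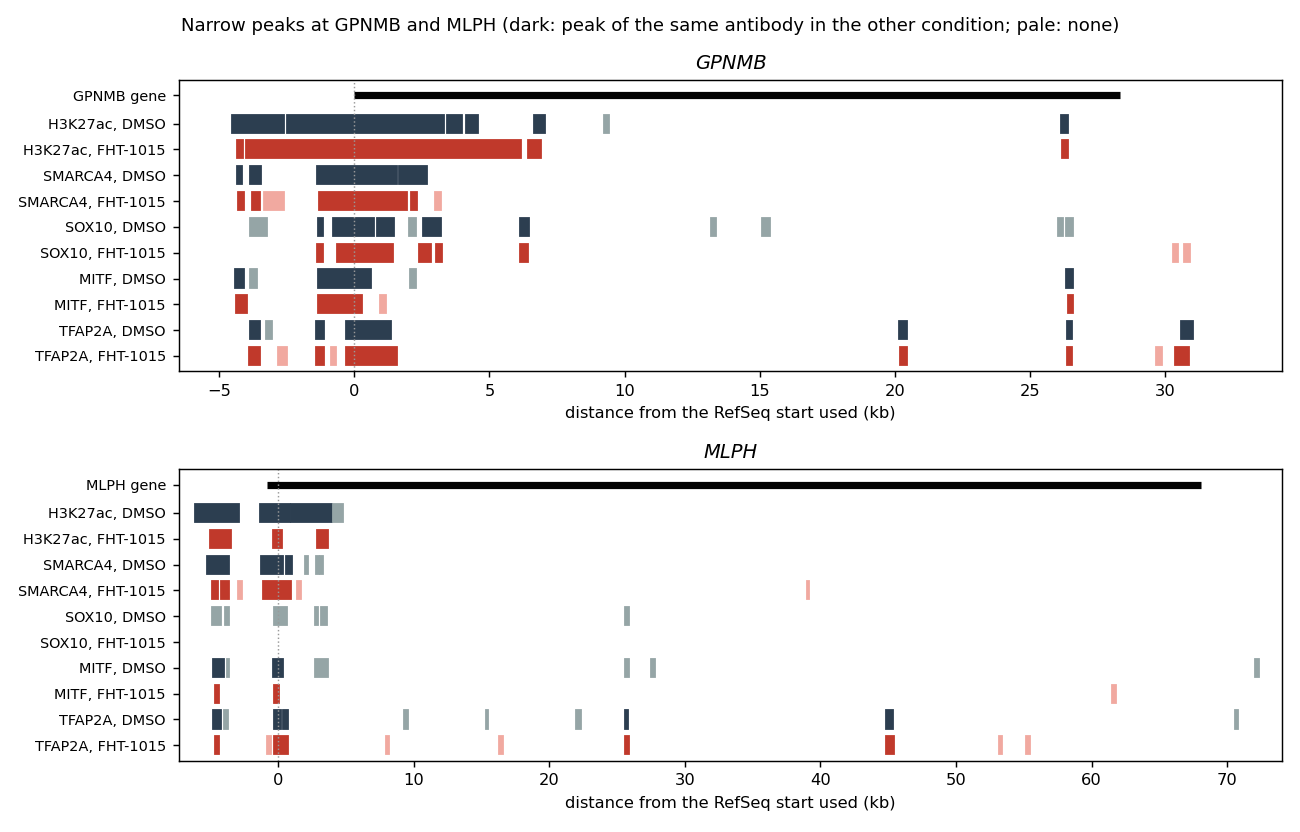
Narrow peaks at GPNMB and MLPH by distance from a RefSeq start (kb, dotted line at 0), 1 row per library, with the gene extent as a black bar; dark peaks overlap a peak of the same antibody in the other condition and pale ones do not. GPNMB keeps peaks of all 5 antibodies around its start, while MLPH has 6 SOX10 peaks in DMSO, all pale, and none in FHT-1015.

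RAB38, a Rab GTPase that acts with RAB32 in sorting melanosome cargo, has a RefSeq extent of chr11:87803715-88175443 and held the most peaks of the 36 genes for every antibody: 53 SOX10 peaks in DMSO against 16 in FHT-1015, 33 and 31 MITF peaks, 30 and 24 TFAP2A peaks, 42 and 46 H3K27ac peaks, and 33 in each condition for SMARCA4. It kept 90.5% of its H3K27ac peaks, which covered 63471 bp in DMSO and 75268 bp in FHT-1015, while 24.5% of its SOX10 peaks were retained. Of the 36 H3K27ac peaks seen at these genes in FHT-1015 alone, 19 lay at RAB38 and 11 at LYST. The strongest retained SOX10 peak of the class was at chr11:88151626-88153569, with −log10 p 137 and 142 reads in DMSO and 83.4 and 124 reads in FHT-1015. The strongest lost TFAP2A peak lay in the same gene at chr11:87962222-87962630 (−log10 p 58.7); SOX10 and SMARCA4 peaks overlapped it in DMSO only, MITF in both, and H3K27ac in neither.

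Of the selective genes, the 5 with the most SOX10, MITF and TFAP2A peaks in DMSO were MYO5A, MREG, SLC7A11, BACE2 and TPCN2. MYO5A, the myosin Va motor that carries melanosomes on actin, had 18 SOX10 peaks in DMSO against 2 in FHT-1015, 14 and 11 MITF peaks, 18 and 14 TFAP2A peaks, 30 and 21 H3K27ac peaks, and 22 and 22 SMARCA4 peaks. The strongest lost SOX10 peak of the class lay in it at chr15:52520123-52520789, with −log10 p 63.5 and 80 reads, and the peaks of the 4 other antibodies that overlapped it in DMSO had counterparts in FHT-1015. The strongest retained MITF peak, at chr15:52484951-52486342, had −log10 p 254 and 172 reads in DMSO against 84.0 and 75 reads in FHT-1015. MREG, melanoregulin, which acts in melanosome transport, had 9 and 6 SOX10 peaks, 12 and 11 MITF peaks, 13 and 9 TFAP2A peaks, 11 and 7 H3K27ac peaks, and 11 and 11 SMARCA4 peaks. At 1 MREG element the SOX10 peak chr2:215998487-215999325 had −log10 p 126 and 130 reads in DMSO against 5.31 and 21 reads in FHT-1015, the SMARCA4 peak had 46.8 and 7.05, and the TFAP2A peak of 130 (chr2:215998460-215998982) had no counterpart. At chr2:216013539-216014118 in the same gene, the TFAP2A peak was 230 and 218, with 164 and 157 reads.

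SLC7A11, the cystine and glutamate exchanger, had 12 SOX10 peaks in DMSO against 1 in FHT-1015, 10 and 6 MITF peaks, 7 and 7 TFAP2A peaks, 6 and 6 H3K27ac peaks, and 11 and 11 SMARCA4 peaks. BACE2, a protease that cleaves the melanosome fibril protein PMEL, had 10 and 1 SOX10 peaks, 5 and 4 MITF peaks, 13 and 11 TFAP2A peaks, 6 and 2 H3K27ac peaks, and 8 and 8 SMARCA4 peaks; all 5 of its MITF peaks were retained. TPCN2, a cation channel of melanosomes and lysosomes, had 7 SOX10 peaks and then none, 5 and 2 MITF peaks, 10 and 12 TFAP2A peaks, 3 and 4 H3K27ac peaks, and 7 and 6 SMARCA4 peaks. These 3 genes had nearly all SOX10 peaks missing in FHT-1015 with SMARCA4 counts equal or 1 lower. The strongest lost MITF peak of the class was in TPCN2 at chr11:69052319-69052808, with −log10 p 53.7 and 75 reads. RAB27A, RAB32, CD63 and ATP7A had 5 to 10 SOX10 peaks in DMSO and 1 to 3 in FHT-1015, and their covered-length ratios for SOX10 ran from 0.086 at RAB32 to 0.295 at ATP7A. CD63, a tetraspanin that sorts PMEL, held the strongest H3K27ac peak of the class, with −log10 p 270 and 328. All 9 selective genes were called lower for SOX10, with a median covered-length ratio of 0.086. The median was 0.234 for lineage-restricted genes, 0.348 for ubiquitous genes and 0.253 over all protein-coding genes tested.

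In the ubiquitous class, LYST, a large protein that limits the size of lysosome-related organelles and whose loss causes Chediak-Higashi syndrome, held the most factor peaks, followed by AP3D1, AP3B1 and DTNBP1, with HPS4 and HPS5 tied next. LYST had 19 SOX10 peaks in DMSO against 3 in FHT-1015, 12 and 14 MITF peaks, 21 and 14 TFAP2A peaks, 17 and 20 H3K27ac peaks, and 15 and 19 SMARCA4 peaks. An element inside LYST carried both the strongest lost SOX10 peak of the class (chr1:235872059-235872806, −log10 p 58.4, 84 reads) and the strongest retained MITF peak (chr1:235872104-235872921), which had −log10 p 266 and 221 reads in DMSO against 15.2 and 30 reads in FHT-1015. A peak counted as retained can thus have very different values in the 2 lists; the MITF depth ratio is 0.854, and the part of depth was not tested. A TFAP2A peak overlapped the element in DMSO only, and SMARCA4 and H3K27ac peaks in both conditions.

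The AP-3 subunits AP3D1 and AP3B1, which sort cargo from endosomes to melanosomes, had SOX10 covered-length ratios of 0.388 and 0.580, against 0.152 at LYST. AP3D1 had 12 SOX10 peaks in DMSO against 8 in FHT-1015, 6 and 9 MITF peaks, 19 and 17 TFAP2A peaks, 9 and 6 H3K27ac peaks, and 10 and 11 SMARCA4 peaks. AP3B1 had 6 and 4 SOX10 peaks, 9 and 10 MITF peaks, 7 and 7 TFAP2A peaks, 2 and 1 H3K27ac peaks, and 6 and 7 SMARCA4 peaks. The strongest retained SOX10 peak of the class lay in AP3B1 at chr5:78004987-78005579, with −log10 p 91.9 and 93 reads in DMSO against 3.22 and 12 reads in FHT-1015. At AP3D1 the counts of peaks in FHT-1015 included 4 SOX10 peaks with no DMSO counterpart. The strongest MITF peak in DMSO had 73.9 against 10.61 for its FHT-1015 counterpart at AP3B1, and 63.6 against 37.7 at AP3D1.

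DTNBP1, dysbindin of BLOC-1, had 4 SOX10 peaks in each condition, of which 1 DMSO peak was retained, 8 and 9 MITF peaks with 2 retained, 10 and 7 TFAP2A peaks, 2 and 1 H3K27ac peaks, and 8 and 6 SMARCA4 peaks. Equal counts there were thus mostly different peaks. The strongest lost TFAP2A peak of the class lay in it at chr6:15574118-15574796, with −log10 p 117 and 139 reads; SOX10, MITF and H3K27ac peaks overlapped it in DMSO only, and SMARCA4 in both. HPS4, the BLOC-3 subunit that with HPS1 activates RAB32 and RAB38, had 6 and 2 SOX10 peaks, 4 and 6 MITF peaks, 7 and 5 TFAP2A peaks, 6 and 2 H3K27ac peaks, and 12 and 8 SMARCA4 peaks. HPS5, of BLOC-2, had 6 and 3 SOX10 peaks, 4 and 4 MITF peaks, 7 and 3 TFAP2A peaks, 5 and 5 H3K27ac peaks, and 9 and 8 SMARCA4 peaks. The HPS1 window, which reached into the gene PYROXD2, held the strongest factor peak of the class. This TFAP2A peak at chr10:98414333-98416233 had −log10 p 347 in DMSO against 62.9 in FHT-1015. It lay at a gene boundary, and whether it belongs to HPS1 or to PYROXD2 was not examined. SOX10 and MITF peaks overlapped it in DMSO only.

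At the 8 BLOC-1 genes, DTNBP1 included, the share of DMSO peaks at boundaries was 70.8% for SOX10, 86.7% for H3K27ac, 48.1% for TFAP2A, 47.6% for SMARCA4 and 35.3% for MITF. BLOC-1 genes retained 7 of 24 SOX10 peaks (29.2%), BLOC-2 genes 4 of 10, BLOC-3 genes 2 of 9, and the adaptors and tethers 11 of 41 (26.8%). Rab GTPases and actin transport genes retained 23 of 102 (22.5%), melanosomal membrane proteins 8 of 34 (23.5%), and membrane transport genes 9 of 58 (15.5%, 8.38 to 26.9). For H3K27ac the membrane transport genes retained 53.6% and had a covered-length ratio of 0.618, against 69.6% and 0.900 for Rab GTPases and actin transport and 72.7% and 0.906 for adaptors and tethers. Single genes moved these values, in a comparison made after seeing the data. Without RAB38 the Rab and actin transport genes retained 33 of 60 H3K27ac peaks (55%) with a ratio of 0.616, close to the membrane transport genes. Without TRPM1 the membrane transport genes retained 67.7% with a ratio of 0.591, and without LYST the adaptors and tethers retained 87.5% with a ratio of 0.907. BLOC1S6, SNAPIN, BLOC1S4 and BLOC1S5 had 1 H3K27ac peak each in DMSO, all retained, and VPS33A, of the HOPS tethering complex, retained 2 of 2 SOX10, 2 of 2 MITF and 3 of 3 H3K27ac peaks.

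The strongest DMSO peak of each gene was retained more often than the peaks as a whole for all 5 antibodies. It was retained at 36 of 36 genes for H3K27ac, at 33 of 34 for MITF (lost at AP1G1), at 35 of 36 for TFAP2A (lost at BLOC1S3), and at 33 of 35 for SMARCA4 (lost at OCA2 and BLOC1S2). For SOX10 it was retained at 23 of 36 genes and lost at 13: OCA2, SLC45A2, MLPH, TSPAN10, TPCN2, BACE2, HPS3, AP3D1, BLOC1S1, BLOC1S3, SNAPIN, DTNBP1 and LYST. Strength thus went with retention for all antibodies, and DMSO peaks of −log10 p 10 or more were retained at 39.4% for SOX10, 84.4% for MITF, 80.0% for TFAP2A, 94.4% for H3K27ac and 94.5% for SMARCA4. Over all protein-coding windows such peaks were retained at 38.4% for SOX10, 67.0% for MITF, 76.9% for TFAP2A, 90.5% for H3K27ac and 88.3% for SMARCA4. The strongest peak per gene was not followed over all genes.

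Overlap of SOX10 peaks with the other antibodies was counted in each condition separately, so equal counts need not be the same peaks. Of the 214 lost SOX10 peaks, 136 (63.6%) overlapped an H3K27ac peak in DMSO and 125 (58.4%) one in FHT-1015; at lineage-restricted genes these counts were 53 and 53 of 89. Over all protein-coding windows the shares of lost SOX10 peaks were 48.7% and 39.7%. Fewer lost SOX10 peaks overlapped the other antibodies in FHT-1015 than in DMSO. SMARCA4 overlapped 110 of the 214 in DMSO (51.4%) against 98 (45.8%), MITF 95 (44.4%) against 61 (28.5%), and TFAP2A 113 (52.8%) against 85 (39.7%). Over all protein-coding windows these shares were also lower in FHT-1015, at 52.7% and 40.9%, 39.8% and 19.9%, and 58.8% and 39.5% in the same order. At ubiquitous genes SMARCA4 overlapped 32 of 60 lost SOX10 peaks in DMSO against 34 in FHT-1015. The 65 retained SOX10 peaks lay in H3K27ac more often, at 58 in DMSO (89.2%) and 59 in FHT-1015 (90.8%), as they did over all protein-coding windows, at 85.1% and 86.2%. Peaks of SOX10, MITF and TFAP2A in DMSO merged into 439 sites, of which 99 (22.6%) had all 3 factors, against 17.6% over all protein-coding windows. In FHT-1015, 36 of the 99 overlapped a SOX10 peak, 74 an MITF peak and 74 a TFAP2A peak, and 33 had all 3 (33.3%). The remaining counts were 32 sites with 2 factors, 21 with 1 and 13 with none (13.1%). Over all protein-coding windows 30.6% of such sites had all 3 in FHT-1015 and 17.5% none, near the shares of the melanosome genes. By class, sites with all 3 factors in FHT-1015 were 9 of 33 at lineage-restricted genes, 10 of 34 at selective genes and 14 of 33 at ubiquitous genes, and sites with none were 7, 3 and 3.

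A list of 24 other genes of melanosome transport, such as further subunits of AP-1, AP-3 and the HOPS complex and SNARE proteins, was treated in the same way. SOX10 was lower at 18 of the 21 tested (79.7% of all genes tested), and 5 of 22 with a SOX10 peak lost them all (28.5%). MITF was lower at 6 of 20 (20.5%) and higher at 1 (11.4%), and TFAP2A lower at 4 of 23 (9.90%). H3K27ac was lower at 3 of 23 (12.4%), and SMARCA4 higher at 7 of 21 (18.8%). Retained shares were 26.5% of 113 peaks for SOX10 (21.3% over all protein-coding windows), 40.2% of 97 for MITF (41.0%) and 53.3% of 122 for H3K27ac (62.5%). Among the pigment enzymes and matrix proteins TYR, TYRP1, DCT, PMEL and MLANA, SOX10 was lower at 4 of 5 genes, MITF at 3, TFAP2A at 2 and H3K27ac at 1. The same shares of all genes apply to these counts. The 5 pigment enzyme and matrix genes retained 32.8% (22.3 to 45.3) of 61 SOX10 peaks. They retained 35.7% (20.7 to 54.2) of 28 H3K27ac peaks, the lowest H3K27ac share of the lists examined. Their H3K27ac covered-length ratio was 0.830, against 0.801 over all protein-coding windows. The low share was thus one of peak number and not of covered length.

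Defining markers of melanocytes and of other cell types were checked by H3K27ac. Its peaks lay in the windows of all 6 melanocytic genes (SOX10, MITF, PMEL, MLANA, TYR and DCT) in both conditions, and none in those of EPCAM, PECAM1 and CD3E. PTPRC, a leukocyte gene, had 4 peaks in DMSO against 1 in FHT-1015, and CDH5, an endothelial gene, 1 and 2. The retinal pigment epithelium genes RPE65, BEST1 and RLBP1 had 2, 5 and 1 peaks in each condition. Peak lists show no expression, and the part of these loci in the results was not tested. The 10 lists held between 33268 peaks (SOX10, FHT-1015) and 142667 (TFAP2A, DMSO). The lowest −log10 p was just above 2 in each of them, so weak peaks were included.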

How the data were processed

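Peak lists of 10 ChIP-seq libraries of 92-1 cells were used; the DMSO input sample was not used here. BWA, SAMtools, Picard, MACS2 and hg38 are named per the submitters' processing notes, without versions or settings, and the control used for calling is not given in the sources used here. The authors deposited a narrow list per library and broad lists for H3K27ac and SMARCA4. Column 7 of each list, deposited by the authors, is a fold enrichment, a ratio over the caller's background. Each peak also has a −log10 p and a −log10 q, again deposited by the authors. The authors' score, a whole number 10 times one of these, was not used. All 3 kinds of value serve to rank or describe peaks within a list; DMSO and FHT-1015 values are set side by side only as a description.

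The genes, classes and lists were chosen with earlier results of these data known. Windows were RefSeq (GRCh38.p14) extents with 5 kb either side, and exons and introns were not analysed here. A DMSO peak was retained when an FHT-1015 peak of its antibody shared 1 bp. Wilson and Newcombe 95% intervals cover counting of peaks only; peaks of 1 library are not replicates. Full values are given for lineage-restricted genes and for the 5 genes (with ties) of each other class with the most factor peaks in DMSO, and for the strongest lost and retained peaks. Reads at a summit were recovered from fold and p, assuming fold = (x + 1)/(λ + 1) and a Poisson p; whole reads were found within a −log10 p of 0.02 for 100% of 3000 sampled peaks in 9 lists and 99.9% in the SOX10 FHT-1015 list, after its scaling by 0.889 was undone. Depth ratios use the lowest recurring background and the shortest peak. Motifs were counted in RefSeq promoter sequences. Window, overlap and covered-length steps were tested on simulated peaks. Python 3.11.15, numpy 2.4.6, pandas 2.3.3 and scipy 1.17.1 were used. Alternatives were another window (gene body or 20 kb), broad lists, a −log10 p minimum of 10, distal peaks only, summits within 200 bp and other class borders; leaving out RAB38, TRPM1 or LYST, and distal peaks not over a RefSeq start, were chosen after seeing the data.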

Additional observations from a re-analysis of the deposited data

How the results depend on the processing

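No paired analysis was possible because each antibody and condition had 1 library. Of 147 values under the alternatives, 116 stayed within their interval (for covered length, within 1.5 times), and 31 did not. Gene body only, 20 kb windows, broad lists and the other class borders moved none of them beyond it. A value within its interval can still change sign, as the H3K27ac class difference did with broad lists (-1.94 points). Retained shares over the 36 genes among distal peaks were 58.5% for H3K27ac, 62.8% for SMARCA4, 15.9% for SOX10 and 53.1% for TFAP2A. Distal peaks that also lay off RefSeq starts, chosen after seeing the data, gave 57.1%, 61.0%, 14.1% and 51.5%, and 48% for MITF, with a lineage-restricted minus ubiquitous difference of 17.8 points for H3K27ac and 9.86 for SOX10. Requiring summits within 200 bp gave 39.4%, 47.5%, 18.3% and 52.2% for H3K27ac, SMARCA4, SOX10 and TFAP2A. DMSO peaks of −log10 p 10 or more matched to any FHT-1015 peak gave 94.4%, 94.5%, 39.4% and 80.0% in that order, and 84.4% for MITF. That minimum in both lists gave 83.2% for H3K27ac, 60% for SMARCA4 and 12.5% for SOX10, with a SOX10 covered-length ratio of 0.145. The lineage-restricted minus ubiquitous difference became 17.4 points for H3K27ac and 9.58 for SOX10 among distal peaks, 10.4 for SOX10 with the minimum in both lists, and -12.3 for H3K27ac without RAB38, a choice made after seeing the data. Retained H3K27ac shares of 3 groups by role moved without the gene holding the most H3K27ac peaks in DMSO (RAB38, TRPM1 and LYST). They became 55% for Rab GTPases and actin transport, 67.7% for membrane transport and 87.5% for adaptors and tethers. Distal peaks and a minimum are fewer peaks by construction; the cause of the other shifts was not tested. Read totals of the libraries are unknown, so weak peaks near −log10 p 2 limit what a lost peak shows.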
